A study of Sus scrofa with 6 samples.

Results

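Cytokines, chemokines and their receptors are the secreted signals, and the surface proteins that read them, through which immune cells and brain cells alter each other's behaviour. Members were the gene symbols that begin with IL plus a digit, TNFSF, TNFRSF, TGFB1 to TGFB3, TGFBR, CCL, CCR plus a digit, CXCL, CXCR, ACKR, CSF plus a digit, IFNA, IFNG or IFNL, without CSF1R. The rule found 90 genes among the 10937 identifiers with a symbol and the 18225 identifiers in all. The name table holds 153 symbols that meet the rule, and those with no matching identifier, among them IL1B, IL6, IFNG, CXCL10, CXCL12, CXCR4, IL34 and CSF1, were not analysed here. A brain library came from each of 3 wild boars and from each of 3 pigs of the Rongchang breed, which is domesticated and comes from China. All animals were 210 days old. The labels give no brain region, sex, kinship or housing, and for the wild boars no breed, so each group stands for 3 numbered animals and p-values measure only the spread between them. The series' title asks about immune response, and the labels name no infection or treatment for either group.

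Cytokine genes are grouped by how their products signal. Interleukins and colony-stimulating factors act mostly through receptors that carry JAK kinases and STAT transcription factors, with shared chains such as IL6ST and IL2RG serving several ligands. The IL-1 and IL-17 families and the TNF superfamily signal towards NF-kappaB through adaptor proteins, and TGF-beta ligands act through receptor kinases that phosphorylate SMAD proteins. Chemokines steer migrating cells through G protein-coupled receptors, while the atypical ACKR receptors bind and remove them. In brain, TGF-beta helps keep microglia in their resting state, and most inflammatory cytokines are kept at low levels in the absence of injury or infection.

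Levels are given in FPKM, a fragment count divided by transcript length and by the mapped total of its library, which corrects for gene length and so allows levels of different genes to be set side by side. The sums of FPKM ran from 568921 to 687359 per library, and read depth is unknown. Genes of neurons and glia were abundant in both breeds. The 4 neuron markers with values summed to 1247 to 1788 FPKM in wild boars and 1304 to 1808 FPKM in Rongchang pigs, and the 7 microglia markers to 61.6 to 137 FPKM in wild boars and 76.5 to 128 FPKM in Rongchang pigs. The libraries numbered 2 stood low for several marker lists in both breeds, and the choroid plexus transport protein TTR stood at 34.2 FPKM in wild boar 3, against 0.120 to 3.01 FPKM in the other libraries. The 3 endothelial markers with values summed to 26.7 to 27.9 FPKM in wild boars and 18.2 to 23.4 FPKM in Rongchang pigs. The sums did not overlap, but each of the 3 genes taken singly did. The part of endothelium in the results was not tested. In whole tissue, fewer cells of a type and less RNA per cell cannot be told apart.

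Most members were scarce in these brains. A mean of 1 FPKM was reached by 42 of the 90 members (46.7%), where 77.8% of all identifiers with a symbol reached it. Of the 42 genes, 36 were at 1 FPKM or more in every library, and all 42 passed the filter for testing, which asked for 1 FPKM in at least 3 of the 6 libraries. No member passed that filter through 1 breed alone. Among the other 48, 24 were above 0 in all 6 libraries at a mean under 1 FPKM and 24 were listed at 0 in at least 1 library. No member was listed at 0 in all of them. Receptors (26 of 53 at a mean of 1 FPKM) and ligands (13 of 33) both had members at and below that level.

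**Figure D1:**
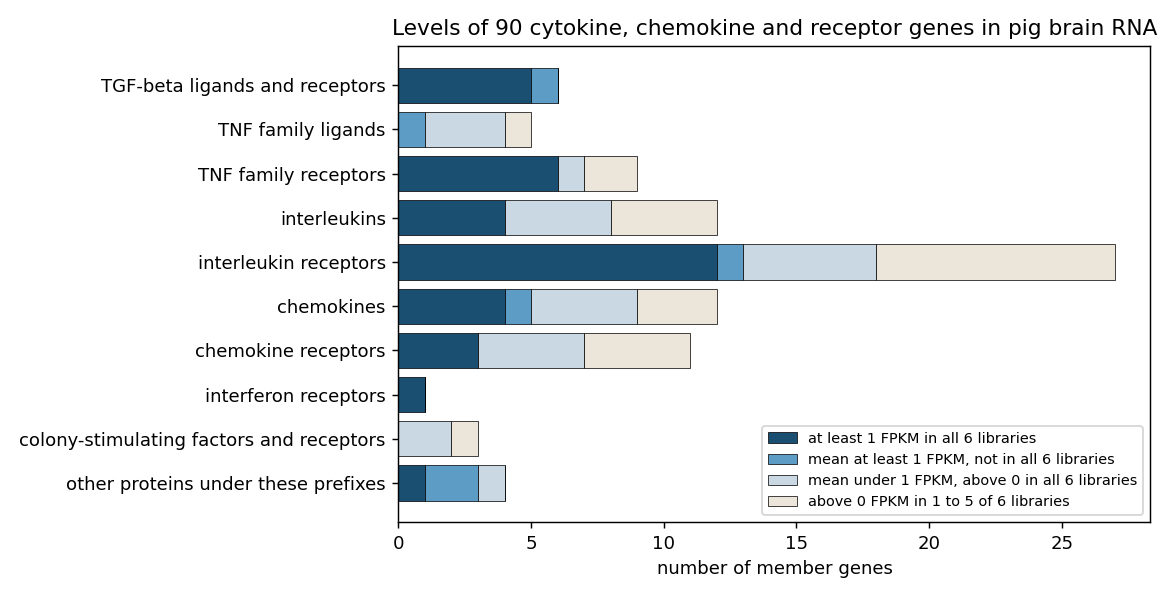
Number of member genes in each role by level class, as horizontal stacked bars over the 6 brain libraries. All 6 TGF-beta ligands and receptors reached a mean of 1 FPKM, while 13 of 27 interleukin receptors and 5 of 12 chemokines did.

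The summed level of the family came mostly from a few genes. The 90 members added up to 434, 333 and 424 FPKM in wild boars 1 to 3, and to 532, 497 and 478 FPKM in Rongchang 1 to 3. The chemokine CXCL14, the growth factor TGFB2 and the chemokine CCL5 made up 52.5%, 42.5% and 53.6% of those sums in the wild boars and 56.4%, 57.5% and 50.1% in the Rongchang pigs. The sums of the wild boars all lay below those of the Rongchang pigs. Without TGFB2 they were 361, 272 and 353 FPKM in wild boars and 402, 305 and 412 FPKM in Rongchang pigs, and wild boars 1 and 3 then lay above Rongchang 2. TGFB2 averaged 67.9 ± 6.01 FPKM in wild boars and 129 ± 63.5 FPKM in Rongchang pigs (SD, n = 3 each).

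No member passed the test between the breeds. In the comparison of wild boar with Rongchang on log2(FPKM + 1), 0 of 42 members were lower and 0 were higher at an adjusted p under 0.05 (limma), where 0.0076% and 0.0% of the 13152 genes tested were. At an unadjusted p under 0.05, 4 members were lower in wild boar and 0 were higher, against 5.42% and 0.578% of all genes. The 4 were the B-cell survival factor TNFSF13B, the TNF receptor family member TNFRSF19, the inflammasome product IL18 and the monocyte attractant CCL2. With the animal number as a block, 7 members were lower and 0 higher at that mark, and the background was then 16.0% and 1.41%. The 3 further genes were IL6ST, ACKR3 and TGFB2, and the smallest adjusted p with the block was 0.228 (limma). Scaling changed these counts. With the block and median scaling together, 3 members were lower (IL18, TNFSF13B and TNFRSF19) and 1 was higher, the TNF receptor TNFRSF1B. Of the 13152 genes, 1379 were at that mark in either direction with these settings. Under quantile normalization 1 member was lower (TNFSF13B) and 1 higher (TNFRSF1B), where 494 of the 13152 genes were at that mark in either direction. The share of members at that mark was 9.52% without the block and 16.7% with it, and the shares of all genes lower at the same mark are the 5.42% and 16.0% above.

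Of the 42 members, 34 had a log2 fold change (wild boar minus Rongchang) below 0 and 8 above it, and 77.9% of all genes tested lay below 0. The median of the members was −0.12, and the median gene stood at −0.13. Against the median gene, 18 members lay below and 24 above. After median scaling of the libraries, 17 members lay below 0 and 25 above. TNFSF13B alone of the members then kept an unadjusted p under 0.05, where 494 of the 13152 genes had one in either direction. The breeds did not overlap for 3 of the tested members, TNFSF13B, TNFRSF19 and TNFRSF11A, all lower in wild boar (7.14%), where 11.4% of all genes were lower with no overlap. None of the 42 tested members was higher with no overlap, against 1.12% of all genes. The log2(FPKM + 1) scale understates differences of genes with low values.

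**Figure D2:**
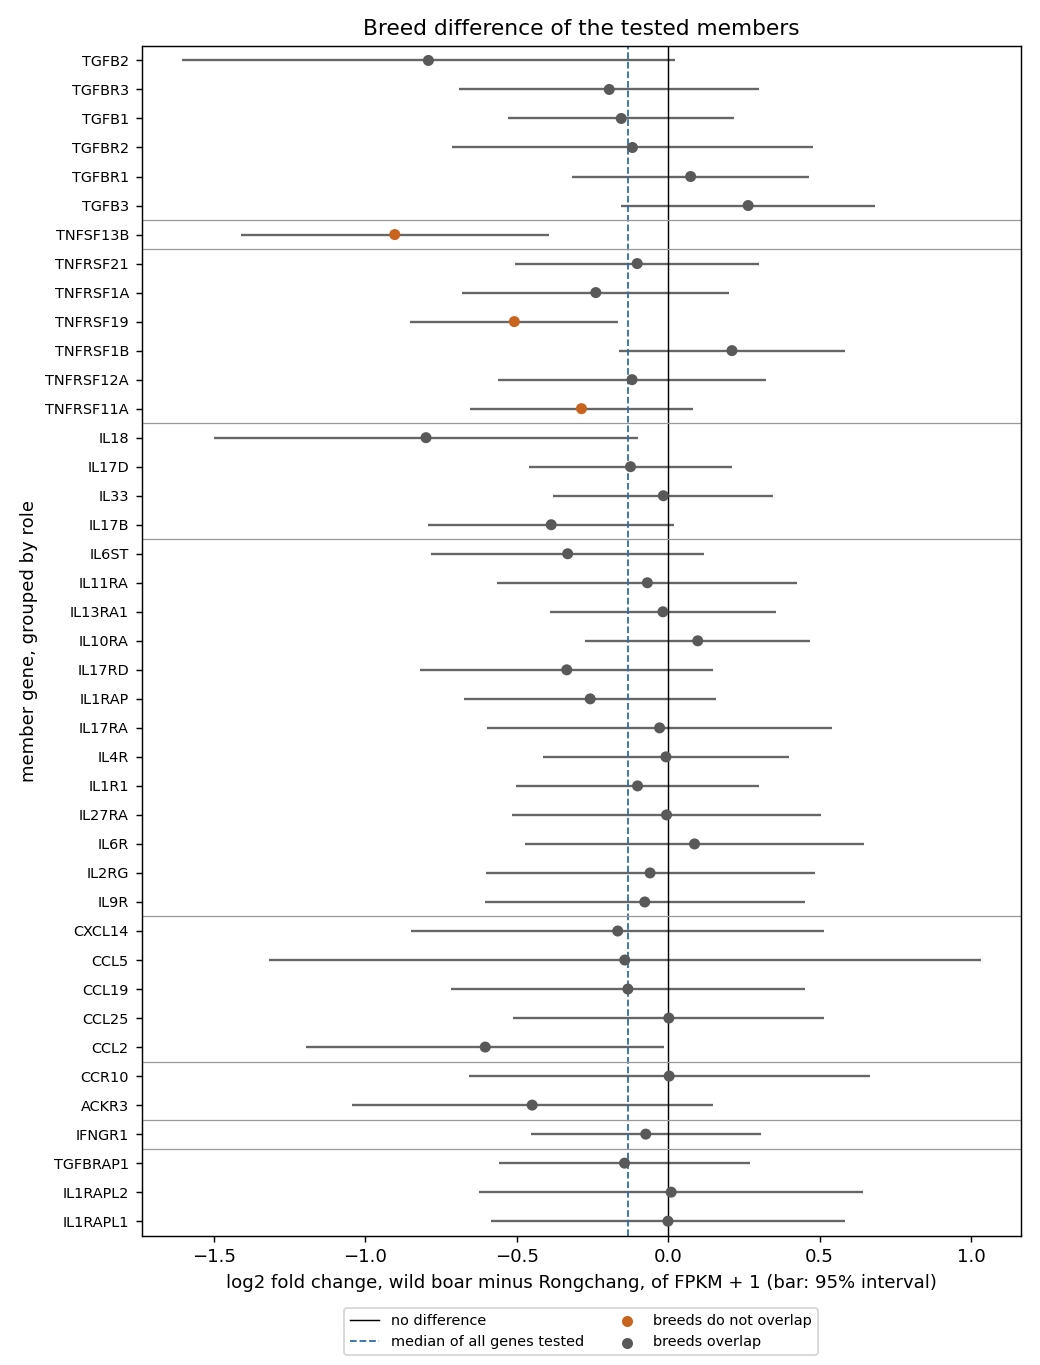
Log2 fold change of 41 tested members, wild boar minus Rongchang, in log2(FPKM + 1), as points with 95% intervals from limma, grouped by role from TGF-beta genes at the top, with orange points where the breeds do not overlap. The dashed line is the median of all genes tested at −0.13; 37 of the intervals drawn include 0, and those of TNFSF13B, TNFRSF19, IL18 and CCL2 lie below it.

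TGF-beta genes were all present. TGFB2 (ENSSSCG00000010816), one of the ligands and the second most abundant member, stood at 72.2, 61.0 and 70.4 FPKM in wild boars 1 to 3 and at 129, 193 and 65.7 FPKM in Rongchang 1 to 3. Rongchang 1 and 2 were high, and Rongchang 3 lay among the wild boars, so the breeds overlapped. The log2 fold change was −0.79 ± 0.35 (SE; 95% interval −1.61 to 0.02; limma, adjusted p = 0.789), and it was −1.21 without Rongchang 3 and −0.44 without Rongchang 2.

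TGFB1, the ligand known as an immune suppressor, stood at 10.2, 8.16 and 10.4 FPKM in wild boars and 12.2, 9.53 and 10.6 FPKM in Rongchang pigs. TGFB3 was the lowest of the ligands, at 1.11, 2.11 and 1.29 FPKM in wild boars and 0.969, 1.13 and 1.07 FPKM in Rongchang pigs, and wild boar 2 was its high point. Their log2 fold changes were −0.15 ± 0.16 for TGFB1 and 0.26 ± 0.18 for TGFB3 (SE), and both sets of values overlapped between the breeds. Without wild boar 2 they were −0.05 for TGFB1 and 0.10 for TGFB3. TGFB2 was above the other ligands in every library.

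TGFBR3, the co-receptor betaglycan that presents TGFB2 to the signalling receptors, stood at 8.98, 12.9 and 7.54 FPKM in wild boars and 11.5, 12.9 and 9.21 FPKM in Rongchang pigs. The receptor kinase TGFBR2 stood at 7.64, 4.37 and 3.87 FPKM in wild boars and 5.85, 4.17 and 7.14 FPKM in Rongchang pigs. The partner kinase TGFBR1 was lower, at 1.80, 1.2 and 1.87 FPKM in wild boars and 1.78, 1.29 and 1.38 FPKM in Rongchang pigs. All the receptors overlapped between the breeds, with log2 fold changes of −0.19 ± 0.21 for TGFBR3, −0.12 ± 0.26 for TGFBR2 and 0.07 ± 0.17 for TGFBR1 (SE). With 1 library left out, these ran from −0.39 to −0.04 for TGFBR3, −0.37 to 0.04 for TGFBR2 and 0.01 to 0.20 for TGFBR1.

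Among TNF superfamily ligands, 1 of 5 reached a mean of 1 FPKM. TNFSF13B (ENSSSCG00000009542), known as BAFF, stood at 1.13, 0.568 and 1.57 FPKM in wild boars and at 2.2, 2.93 and 3.46 FPKM in Rongchang pigs. Every wild boar lay below every Rongchang pig. The log2 fold change was −0.90 ± 0.22 (SE; 95% interval −1.41 to −0.39), the smallest unadjusted p of the members, with an adjusted p of 0.724 (limma). Over 16 alternatives that gave it a value, its log2 fold change ran from −1.39 to −0.65 and its adjusted p from 0.228 to 1.0 (limma).

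The summed level of T and NK cell markers was also lower in every wild boar than in every Rongchang pig. The 4 of 6 listed markers that had values summed to 3.09, 2.44 and 2.57 FPKM in wild boars and 4.06, 4.69 and 5.81 FPKM in Rongchang pigs. Taken singly, CD3D, CD2 and NKG7 each overlapped between the breeds. The T cell receptor gene CD3D ranged from 0.139 to 0.572 FPKM in wild boars and 0.507 to 0.720 FPKM in Rongchang pigs. CD2 ranged from 0.420 to 1.06 FPKM in wild boars and 0.671 to 1.80 FPKM in Rongchang pigs. NKG7 ranged from 0.860 to 1.59 FPKM in wild boars and 1.41 to 2.22 FPKM in Rongchang pigs. The B cell surface gene MS4A1 ranged from 0.0186 to 0.138 FPKM in wild boars and 0.0252 to 0.197 FPKM in Rongchang pigs, and CD79B, of the B cell receptor, from 0 to 0.238 FPKM in wild boars and 0.0546 to 0.259 FPKM in Rongchang pigs. The part of either cell type in the TNFSF13B values was not tested.

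The other TNF ligands stood at means of 0.0548 to 0.448 FPKM. TNFSF4, the ligand of the T cell receptor OX40, stood at 0.466, 0.476 and 0.465 FPKM in wild boars and 0.294, 0.248 and 0.336 FPKM in Rongchang pigs. TNFSF18, the ligand of GITR, stood at 0.462, 0.552 and 0.532 FPKM in wild boars and 0.139, 0.351 and 0.318 FPKM in Rongchang pigs. For both, every wild boar lay above every Rongchang pig. TNFSF14, a ligand of the lymphotoxin beta receptor, was listed at 0 in all 3 wild boars and stood at 0.07, 0.0773 and 0.181 FPKM in Rongchang pigs.

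TNF ligands and receptors overlapped in level, as TNFSF13B at a mean of 1.98 FPKM lay above TNFRSF12A at 1.83 FPKM and TNFRSF11A at 1.71 FPKM. Of the TNF receptors, 6 of 9 were at 1 FPKM or more in every library. The death receptor TNFRSF21, known in neurons for its part in axon pruning, led them at 20.2, 28.2 and 25.2 FPKM in wild boars and 25.4, 29.4 and 24.0 FPKM in Rongchang pigs, with overlap. TNFRSF1A, the main receptor of soluble TNF, stood at 10.6, 7.02 and 7.15 FPKM in wild boars and 10.2, 8.40 and 10.8 FPKM in Rongchang pigs. TNFRSF1B, the TNF receptor of microglia and leukocytes, stood at 8.23, 8.78 and 6.69 FPKM in wild boars and 7.19, 7.13 and 5.72 FPKM in Rongchang pigs. The log2 fold changes were −0.10 ± 0.18 for TNFRSF21, −0.24 ± 0.19 for TNFRSF1A and 0.21 ± 0.16 for TNFRSF1B (SE). TNFRSF1B was higher in the wild boar of each animal number, and its log2 fold change was 0.14 without wild boar 2 and 0.12 without Rongchang 3. TNFRSF1A ran from −0.41 without wild boar 1 to −0.15 without wild boar 2.

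TNFRSF19 (ENSSSCG00000009283), the receptor TROY found in neural progenitors and astrocytes, was lower in wild boar with no overlap. It stood at 7.33, 6.32 and 6.86 FPKM in wild boars and at 11.6, 9.25 and 9.63 FPKM in Rongchang pigs. The log2 fold change was −0.51 ± 0.15 (SE; 95% interval −0.85 to −0.16; limma, adjusted p = 0.766). It kept its sign in all 17 alternatives, between −0.57 and −0.35. The 5 astrocyte markers with values summed to 947 to 1210 FPKM in wild boars and 964 to 1216 FPKM in Rongchang pigs. GFAP, SLC1A3 and SLC1A2 were the most abundant of the 5. ALDH1L1, an astrocyte enzyme and the least abundant, stood at 5.62, 3.83 and 2.84 FPKM in wild boars and 7.73, 6.78 and 7.61 FPKM in Rongchang pigs. ALDH1L1 did not overlap between the breeds, where 11.4% of all genes were lower in wild boar with no overlap. GFAP, SLC1A3, SLC1A2 and GJA1 overlapped, with log2 fold changes of 0.11, 0.03, −0.39 and −0.07. The part of astrocytes in the TNFRSF19 values was not tested.

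TNFRSF11A, the receptor RANK, was the third tested member with no overlap, at 1.77, 1.08 and 1.5 FPKM in wild boars and 1.85, 2.08 and 1.97 FPKM in Rongchang pigs. Wild boar 1 lay close to Rongchang 1, and the log2 fold change was −0.29 ± 0.16 (SE; limma, adjusted p = 0.794) and was −0.17 without wild boar 2. TNFRSF12A, the receptor of the cytokine TWEAK, averaged 1.70 ± 0.294 FPKM in wild boars and 1.97 ± 0.647 FPKM in Rongchang pigs (SD, n = 3 each). The activation-induced T cell receptors TNFRSF4 and TNFRSF9 and the decoy receptor TNFRSF11B had means of 0.0513, 0.177 and 0.156 FPKM over the 6 libraries.

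**Figure D3:**
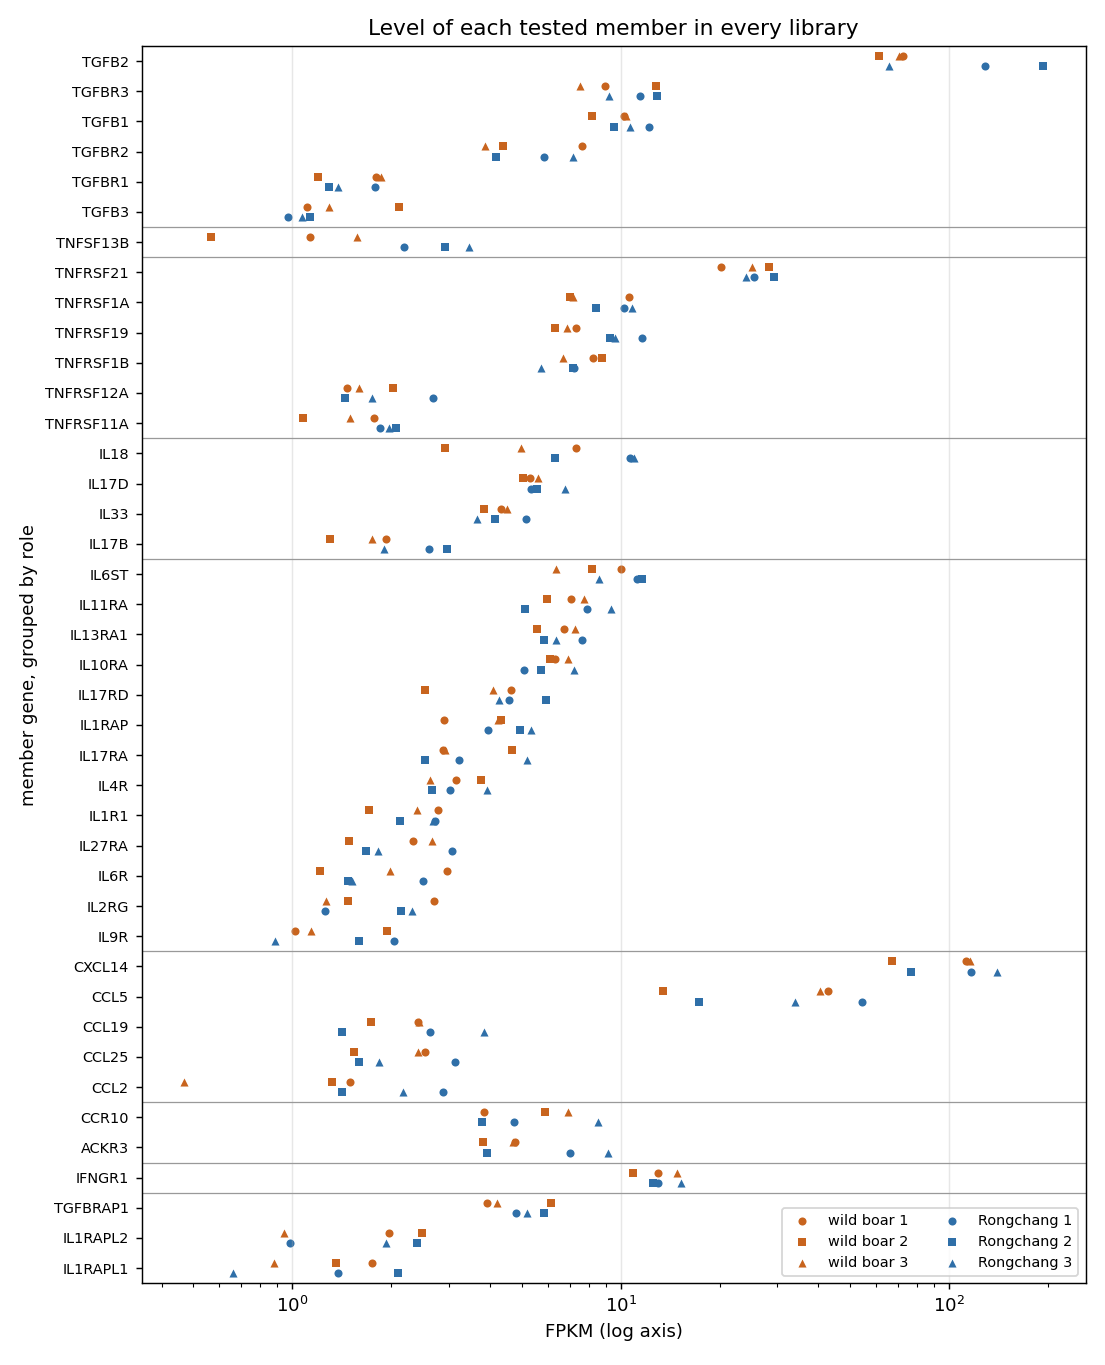
FPKM of 41 tested members in every library on a log axis, wild boars in orange above Rongchang pigs in blue within each row, marker shape giving the animal number. TGFB2 and CXCL14 lie highest, and the breeds are fully apart for TNFSF13B, TNFRSF19 and TNFRSF11A.

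Of 12 interleukins, 4 reached a mean of 1 FPKM and all 4 had a log2 fold change below 0, as 77.9% of all genes did. Against the median gene, 2 lay below and 2 above. IL18 (ENSSSCG00000015037), an IL-1 family cytokine that caspase-1 matures, was the most abundant at 7.31, 2.92 and 4.98 FPKM in wild boars and 10.7, 6.30 and 11 FPKM in Rongchang pigs. In each breed animal 2 was the lowest, and wild boar 1 lay above Rongchang 2. The log2 fold change was −0.80 ± 0.30 (SE; 95% interval −1.5 to −0.10; limma, adjusted p = 0.789). Within each animal number, IL18 was lower in the wild boar than in the Rongchang pig. With both libraries numbered 2 left out, its log2 fold change was −0.75, and without wild boar 2 alone it was −0.52.

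Microglia are a known source of IL18, and the microglia markers were also low in the animals numbered 2. The 7 of 12 listed markers with values summed to 137, 61.6 and 113 FPKM in wild boars and 123, 76.5 and 128 FPKM in Rongchang pigs, and all 7 were above 1 FPKM in every library. The breeds overlapped in that sum, and the part of microglia in the IL18 values was not tested. CASP1, which cleaves the IL18 precursor, stood at 3.16, 1.25 and 1.44 FPKM in wild boars and 2.23, 1.65 and 3.14 FPKM in Rongchang pigs.

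The alarmin IL33, made in brain by oligodendrocytes and astrocytes, was nearly level at 4.34, 3.85 and 4.51 FPKM in wild boars and 5.15, 4.14 and 3.66 FPKM in Rongchang pigs. Its log2 fold change was −0.02 with a 95% interval of −0.38 to 0.35. IL17B, an IL-17 family member found in neurons, stood at 1.93, 1.31 and 1.75 FPKM in wild boars and 2.61, 2.95 and 1.91 FPKM in Rongchang pigs, where only wild boar 1 reached the Rongchang range. Its log2 fold change was −0.39 ± 0.18 (SE; limma, adjusted p = 0.789). IL17D averaged 5.30 ± 0.278 FPKM in wild boars and 5.89 ± 0.781 FPKM in Rongchang pigs (SD, n = 3 each).

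IL1A, IL12A, IL10, IL5, IL7 and IL21 lay near the floor. IL1B and IL6 had no identifier, so their levels are unknown. IL1A stood at 0.126, 0 and 0.0634 FPKM in wild boars and 0.119, 0.122 and 0.0457 FPKM in Rongchang pigs. IL12A, a subunit of the interferon-inducing cytokine IL-12, was listed above 0 only in Rongchang 3, at 0.0584 FPKM. The means of IL10, IL5, IL7 and IL21 over the 6 libraries were 0.214, 0.204, 0.166 and 0.0570 FPKM. The lymphocyte attractant IL16 and the NK and T cell survival factor IL15 were somewhat higher, at means of 0.632 and 0.550 FPKM. IL16 stood at 0.663, 0.381 and 0.347 FPKM in wild boars and 0.730, 0.777 and 0.894 FPKM in Rongchang pigs, with no overlap.

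Interleukin receptors were the largest role, and 13 of 27 reached a mean of 1 FPKM. The median log2 fold change of those 13 was −0.06, and 10 of them lay above the median gene. IL6ST, the gp130 chain shared by IL-6, IL-11 and ciliary neurotrophic factor, led at 10.0, 8.16 and 6.36 FPKM in wild boars and 11.2, 11.6 and 8.60 FPKM in Rongchang pigs. Within each number the wild boar was lower, and the log2 fold change was −0.33 ± 0.20 (SE; limma, adjusted p = 0.803) and was −0.18 without wild boar 3. Its partner IL6R, which binds IL-6, stood at 2.96, 1.22 and 1.98 FPKM in wild boars and 2.49, 1.48 and 1.52 FPKM in Rongchang pigs. IL11RA, the IL-11 binding chain, averaged 6.92 ± 0.888 FPKM in wild boars and 7.47 ± 2.16 FPKM in Rongchang pigs (SD, n = 3 each).

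Receptors of anti-inflammatory and type 2 cytokines were also present. IL10RA, the ligand-binding chain for IL-10 in microglia, stood at 6.30, 6.08 and 6.94 FPKM in wild boars and 5.06, 5.71 and 7.22 FPKM in Rongchang pigs, with a log2 fold change of 0.10 ± 0.16 (SE) that was 0.00 without Rongchang 1 and 0.22 without Rongchang 3. IL13RA1 averaged 6.52 ± 0.872 FPKM in wild boars and 6.61 ± 0.932 FPKM in Rongchang pigs, and its partner IL4R averaged 3.17 ± 0.560 FPKM in wild boars and 3.20 ± 0.655 FPKM in Rongchang pigs (SD, n = 3 each). The breed means of these chains differed by less than 1 SD.

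In the IL-1 and IL-17 receptor families, IL1R1, which binds IL-1, averaged 2.30 ± 0.537 FPKM in wild boars and 2.51 ± 0.335 FPKM in Rongchang pigs. IL1RAP, the chain that IL1R1 and the IL-33 receptor share, averaged 3.82 ± 0.801 FPKM in wild boars and 4.73 ± 0.711 FPKM in Rongchang pigs. IL17RA, shared by several IL-17 cytokines, averaged 3.50 ± 1.03 FPKM in wild boars and 3.64 ± 1.38 FPKM in Rongchang pigs (SD, n = 3 each). IL17RD, also known as a brake on fibroblast growth factor signalling, averaged 3.75 ± 1.08 FPKM in wild boars and 4.91 ± 0.878 FPKM in Rongchang pigs.

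Among receptors of lymphocyte cytokines, the common gamma chain IL2RG averaged 1.81 ± 0.770 FPKM in wild boars and 1.90 ± 0.566 FPKM in Rongchang pigs. IL27RA averaged 2.16 ± 0.606 FPKM in wild boars and 2.19 ± 0.757 FPKM in Rongchang pigs, and IL9R averaged 1.37 ± 0.503 FPKM in wild boars and 1.51 ± 0.585 FPKM in Rongchang pigs (SD, n = 3 each). The chains that mark T and NK cells were low: IL2RA, IL2RB and IL7R had means of 0.0421, 0.220 and 0.242 FPKM over the 6 libraries, and IL12RB1, IL12RB2 and IL23R of 0.177, 0.0801 and 0.0138 FPKM. IL31RA, which pairs with the oncostatin M receptor for IL-31, stood at 0.118, 0.250 and 0.203 FPKM in wild boars and 0.556, 0.528 and 0.387 FPKM in Rongchang pigs, without overlap.

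Of 12 chemokines, 5 reached a mean of 1 FPKM. CXCL14 (ENSSSCG00000014310), a chemokine that certain interneurons make constitutively, was the most abundant member at 113, 67.1 and 116 FPKM in wild boars and 117, 76.3 and 140 FPKM in Rongchang pigs. CCL5 (ENSSSCG00000017705), which attracts T cells and monocytes, followed at 42.7, 13.5 and 40.5 FPKM in wild boars and 54.3, 17.3 and 34.0 FPKM in Rongchang pigs. For both genes animal 2 was the lowest of its breed and the breeds overlapped. The log2 fold changes were −0.17 for CXCL14 (95% interval −0.85 to 0.52) and −0.14 for CCL5 (95% interval −1.32 to 1.03).

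CCL2 (ENSSSCG00000017723), the attractant of monocytes, stood at 1.5, 1.33 and 0.470 FPKM in wild boars and 2.89, 1.42 and 2.18 FPKM in Rongchang pigs. Wild boar 1 lay just above Rongchang 2, and wild boar 3 was the lowest. The log2 fold change was −0.60 ± 0.26 (SE; 95% interval −1.19 to −0.01; limma, adjusted p = 0.789), and without wild boar 3 it was −0.37. The lymphoid chemokine CCL19 averaged 2.19 ± 0.398 FPKM in wild boars and 2.62 ± 1.2 FPKM in Rongchang pigs (SD, n = 3 each). CCL25, known from thymus and gut, stood at 2.55, 1.54 and 2.42 FPKM in wild boars and 3.14, 1.60 and 1.84 FPKM in Rongchang pigs, with a log2 fold change of 0.00 and a 95% interval of −0.51 to 0.52.

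CXCL8, CXCL2 and CXCL11 had means under 1 FPKM. The neutrophil attractant CXCL8 was above 0 only in wild boar 3 (0.0879 FPKM) and Rongchang 2 (0.0767 FPKM). CXCL2, another neutrophil attractant, stood at 1.56, 0.567 and 1.10 FPKM in wild boars and 0.553, 0.691 and 0.854 FPKM in Rongchang pigs. The interferon-induced T cell attractant CXCL11 stood at 0.139, 0.226 and 0.133 FPKM in wild boars and 0.522, 0.439 and 1.71 FPKM in Rongchang pigs, where Rongchang 3 stood apart and the breeds did not overlap.

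Chemokine receptors were mostly scarce, and 3 of 11 reached a mean of 1 FPKM. ACKR3, the atypical receptor that scavenges CXCL12 and CXCL11, stood at 4.76, 3.80 and 4.70 FPKM in wild boars and 7.02, 3.92 and 9.14 FPKM in Rongchang pigs. Rongchang 1 and 3 were high and Rongchang 2 lay within the wild boars. The log2 fold change was −0.45 ± 0.26 (SE; limma, adjusted p = 0.794), and it was −0.74 without Rongchang 2 and −0.22 without Rongchang 3.

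CCR10, the receptor of CCL27 and CCL28, stood at 3.82, 5.88 and 6.92 FPKM in wild boars and 4.75, 3.78 and 8.5 FPKM in Rongchang pigs, with a log2 fold change of 0.00 and a 95% interval of −0.66 to 0.67. The chemokine receptors of T cells CXCR3, CXCR6, CCR6 and CCR7 had means of 0.0980, 0.152, 0.0286 and 0.0837 FPKM over the 6 libraries.

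Of the interferon receptors, IFNGR1, the ligand-binding chain for interferon gamma, was the only member with an identifier. It stood at 13.0, 10.9 and 14.9 FPKM in wild boars and 13.0, 12.6 and 15.3 FPKM in Rongchang pigs, with a log2 fold change of −0.07 and a 95% interval of −0.45 to 0.31. The colony-stimulating factor CSF3 and the receptor genes CSF2RB and CSF3R had means under 1 FPKM, and CSF1 had no identifier. CSF2RB, the chain that GM-CSF, IL-3 and IL-5 share, stood just under the mark at 1.07, 0.907 and 1.58 FPKM in wild boars and 0.792, 0.770 and 0.882 FPKM in Rongchang pigs. The granulocyte receptor CSF3R averaged 0.285 ± 0.0457 FPKM in wild boars and 0.335 ± 0.0812 FPKM in Rongchang pigs (SD, n = 3 each).

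The prefixes also caught 4 genes whose products are neither cytokines nor their signalling receptors. IL1RAPL1 and IL1RAPL2 encode synaptic adhesion proteins of the IL-1 receptor family, and IL1RAPL2 stood at 1.97, 2.49 and 0.943 FPKM in wild boars and 0.987, 2.39 and 1.93 FPKM in Rongchang pigs. IL1RAPL1 averaged 1.33 ± 0.436 FPKM in wild boars and 1.38 ± 0.718 FPKM in Rongchang pigs (SD, n = 3 each). TGFBRAP1, a vesicle tethering protein, averaged 4.75 ± 1.19 FPKM in wild boars and 5.28 ± 0.522 FPKM in Rongchang pigs. IL4I1, a secreted amino acid oxidase, stood at 0.599, 0.582 and 0.684 FPKM in wild boars and 0.905, 0.824 and 1.16 FPKM in Rongchang pigs, with no overlap.

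Ligands and receptors that are known to pair were not always present together. TGF-beta ligands and all their receptors were. IL18 had a mean of 7.20 FPKM, while its receptor chains IL18R1 and IL18RAP had means of 0.0124 and 0.0549 FPKM, and IL18R1 was above 0 only in wild boar 1. CCL19 and CCL25, at means of 2.41 and 2.18 FPKM, had receptors CCR7 and CCR9 at 0.0837 and 0.149 FPKM. In the opposite arrangement, IL10RA at 6.22 FPKM and IL1R1 at 2.40 FPKM stood beside their ligands IL10 at 0.214 FPKM and IL1A at 0.0794 FPKM. CCR10 at 5.61 FPKM stood beside CCL27 at 0.369 FPKM. The further ligands IL1B of IL1R1 and CCL28 of CCR10 had no identifier among the members, so their levels are unknown. Whole tissue does not tell which cell makes either member of a pair.

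Below the filter, 9 of the 48 untested members were lower in wild boar with no overlap (18.8%) and 3 were higher (6.25%), where 7.23% and 2.48% of the 5073 genes below the filter were. The 9 were IL4I1, IL16, CXCL11, IL31RA, IL2RB, IL12RB1, IL7, CCR3 and TNFSF14. Of these, IL16, IL2RB, IL12RB1 and TNFSF14 are known in T and NK cells. Untested members known in T cells that overlapped between the breeds included TNFRSF4, TNFRSF9, CCR6, CCR7 and IL23R, with higher means in wild boar. They also included IL2RA, IL7R, IL12RB2, CXCR3 and CXCR6, with lower means in wild boar. The summed markers of T and NK cells were apart between the breeds (2.44 to 3.09 FPKM in wild boars, 4.06 to 5.81 FPKM in Rongchang pigs). CD3D, CD2 and NKG7 were not apart singly. The part of those cells in these values was not tested. The 3 were CSF2RB, TNFSF18 and TNFSF4. These genes were chosen after their values were seen. With no filter, 0 of the 90 members passed and the smallest adjusted p was 0.741 (limma).

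Within the breeds, members and all genes were compared by which animal number was lowest or highest. Animal 2 was the lowest of its breed in both breeds for 16 of the 42 members (38.1%), where 21.4% of all genes tested showed that pattern. Animal 1 was lowest in both breeds for 3 members (7.14%, against 22.4% of all genes). Animal 3 was lowest in both for 4 members (9.52%, against 14.4% of all genes). Animal 2 was highest in both breeds for 5 members (11.9%), against 28.5% of all genes. The 16 included 4 of the 5 chemokines tested, CXCL14, CCL5, CCL19 and CCL25, and IL18, IL6R, IL1R1, IL11RA, ACKR3, TNFRSF1A and TGFBR1. CCL5 in wild boar 2 was 0.323 times the mean of wild boars 1 and 3, and in Rongchang 2 it was 0.391 times the mean of Rongchang 1 and 3. For IL18 these ratios were 0.475 and 0.581, and for CXCL14 0.587 and 0.595.

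Other cell markers were low in the same animals. The beta globin gene HBB, which marks blood in the tissue, stood at 273, 57.7 and 212 FPKM in wild boars and 137, 66.9 and 189 FPKM in Rongchang pigs. The 3 meningeal markers with values summed to 21.9, 12.8 and 18.0 FPKM in wild boars and 18.9, 12.3 and 24.9 FPKM in Rongchang pigs. The neuron markers in animal 2 were not low, at 1788 FPKM in wild boar 2 and 1744 FPKM in Rongchang 2. The part of blood, meninges or microglia in the member values was not tested, and the labels do not say what an animal number stands for.

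**Figure D4:**
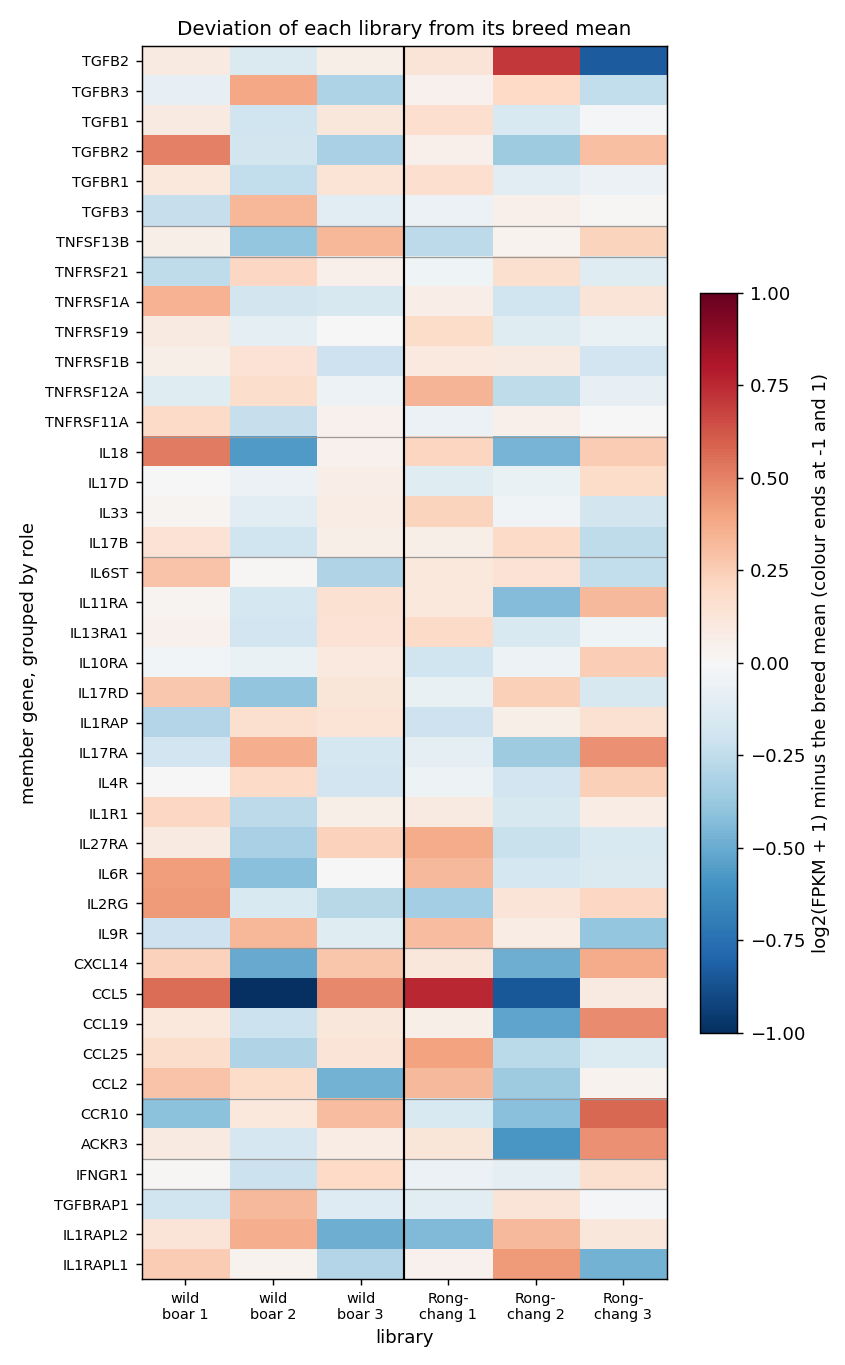
Deviation of each library from the mean of its own breed in log2(FPKM + 1) for 41 tested members, wild boars 1 to 3 on the left and Rongchang 1 to 3 on the right, blue below and red above the mean. CXCL14, CCL5 and IL18 are blue in both animals numbered 2, and TGFB2 deviates most in Rongchang 2 and 3.

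Genes that act with these members in signalling showed no called difference. Of 91 listed pathway genes, 64 had values and 48 were tested, of which 0 passed in either direction (limma, adjusted p from 0.789 upwards). At an unadjusted p under 0.05, 1 was lower (2.08%) and 0 were higher, against 5.42% and 0.578% of all genes. Of the 48, 36 lay below 0 (75.0%, against 77.9% of all genes), with a median log2 fold change of −0.11, and against the median gene 20 lay below and 28 above. The breeds did not overlap for 5 genes lower in wild boar (10.4%, against 11.4% of all genes), among them TYK2, CNTFR, KIT and SMAD4.

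TYK2, a kinase of type I interferon and IL-12 receptors, stood at 6.13, 6.64 and 5.19 FPKM in wild boars and 7.71, 7.92 and 7.55 FPKM in Rongchang pigs. CNTFR, the ciliary neurotrophic factor receptor that signals through IL6ST, stood at 17.7, 16.2 and 17.9 FPKM in wild boars and 24.1, 22.2 and 19.9 FPKM in Rongchang pigs. NFKBIA, the NF-kappaB inhibitor that NF-kappaB itself induces, had the highest log2 fold change of the list, 0.34, at 11.5, 14.8 and 19.9 FPKM in wild boars and 8.97, 10.3 and 17 FPKM in Rongchang pigs, with overlap. The microglial growth factor receptor CSF1R stood at 12, 8.60 and 9.30 FPKM in wild boars and 13.2, 9.36 and 11.5 FPKM in Rongchang pigs.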

How the data were processed

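Poly(A) RNA from 6 brains was sequenced as strand-marked 100-bp paired-end libraries, per the labels' protocols. The submitters' processing notes name TopHat2 2.0.11, Cufflinks 2.2.1 and Cuffdiff, with no role or order. Genome build, annotation and strand setting: not given in the sources used here. Coordinates are therefore left out, and genes overlapping an antisense partner are uncertain. The deposited table holds 1 FPKM value per gene and animal as the authors made it; its header names no unit, which was judged from the tools and the values. Scaling between libraries is not stated. Among values under 0.15 FPKM at most 23.7% of ratios between libraries lay within any single window 0.04 log2 units wide, so depth was not recovered and no counting interval is given. Chemokines and receptors with near-identical copies, CCL3L1 among them, can share reads.

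Symbols came from a table of Ensembl names and covered 60.0% of identifiers; a symbol on several identifiers would take the highest mean, and no member needed this. Wild boar was compared with Rongchang by limma 3.58.1 in R 4.3.3, two-sided with a mean-variance trend, on log2(FPKM + 1), keeping genes that reached 1 FPKM in 3 or more of the 6 libraries, across all 13152 genes, with Benjamini-Hochberg adjustment and a threshold of 0.05. Tables and plots were made in Python 3.11.15. The fit was checked on simulated data with independent noise in each library, without deviations shared by same-numbered animals. Members, lists and tests were chosen with earlier results of these data known. Values in every library were given for the 12 most abundant members, the 8 with the smallest p in each direction and a fixed set of well-known cytokine genes, and further members, including those low with no overlap, were chosen after their values were seen. Same-numbered animals deviated together (correlations 0.28, 0.59 and 0.37, all above the bound of 0.1, but wild boar 3 with Rongchang 1 also at 0.12), so blocked results stand beside the counts it moved. The 17 alternatives covered pseudocount, filter, scaling, trend, weights, block and libraries left out. Values of 1 member and of a few listed non-members are not reported here, although counts and sums over the lists include them.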

Additional observations from a re-analysis of the deposited data

How the results depend on the processing

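No member passed in any of the 17 alternatives, with a smallest adjusted p of 0.228 (limma, replicate block). Of 26 named members with a fold change, 15 kept their direction throughout. The number of genes passing was 1, and 3 with a pseudocount of 0.1 or without both libraries numbered 2, 0 with a mean of at least 5 FPKM, and 1 to 4 with 1 library left out. With the replicate block it was 1. The members' median log2 fold change, −0.12, was 0.024 after median scaling, with or without the block, and 0.023 after quantile normalization, while that relative to the median gene moved by less than the spread between libraries everywhere. Direction reversed under median scaling, with or without the block, for CXCL14 (0.0063), CCL5 (0.026), TGFB1 (0.0042), IFNGR1 (0.089), IL33 (0.12), TGFBR2 (0.029) and TNFRSF21 (0.065). Under quantile normalization it did for IFNGR1 (0.070), IL33 (0.12), TGFBR2 (0.041) and TNFRSF21 (0.025), with library weights for CCL25 (−0.088) and IFNGR1 (0.032), and without both libraries numbered 2 for CCR10 (−0.26), IL1RAPL2 (−0.0057) and IL33 (0.020). With 1 library left out, log2 fold changes ran from −0.13 to 0.20 for CCL25, −0.57 to 0.38 for CCL5, −0.21 to 0.29 for CCR10, −0.41 to 0.087 for CXCL14, −0.17 to 0.033 for IFNGR1, −0.21 to 0.25 for IL1RAPL2, −0.11 to 0.094 for IL33, −0.12 to 0.30 for IL6R, −0.37 to 0.043 for TGFBR2 and −0.21 to 0.026 for TNFRSF21. The cause was not tested. Read depth is unknown, and each breed has 3 animals.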

Other observations

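Some members that neighbour each other in RefSeq gene order (Sscrofa11.1) stood at unlike levels, and others at like levels. Neighbours were not compared with members that lie apart. All 90 members were found there, and 26 lay in 10 runs with at most 3 protein-coding genes between neighbours. In the IL-1 receptor run, IL1R1 had a mean of 2.40 FPKM over the 6 libraries, while IL1R2, the decoy receptor beside it, had 0.0872 FPKM, IL18R1 0.0124 FPKM and IL18RAP 0.0549 FPKM. IL6ST had 9.33 FPKM and the adjacent IL31RA 0.340 FPKM, IFNGR1 had 13.3 FPKM and IL20RA 0.327 FPKM, and IL4R had 3.19 FPKM and the adjacent IL21R 0.515 FPKM. CCL19 and IL11RA, at 2.41 and 7.19 FPKM, flanked CCL27 at 0.369 FPKM. CCR9 and the nearby CXCR6 were alike in level, at means of 0.149 and 0.152 FPKM. The near neighbours TNFSF4 and TNFSF18 were alike in level, at means of 0.381 and 0.392 FPKM, and both were higher in every wild boar than in every Rongchang pig.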
